A study of Mus musculus with 48 samples.

Results

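The Western diet was compared with the sucrose/oleate diet in white adipose tissue of the epididymis, a visceral fat depot of male mice. Members were chosen by title: the 7 samples titled as Western diet and the 9 titled as sucrose/oleate, 16 of the 48 samples of the series. All mice were C3H/HeOuJ, an inbred strain, and ate their diet freely for 6 months. The Western diet was a commercial adjusted fat diet, and the sucrose/oleate diet was a custom diet named for its carbohydrate, sucrose, and its fat, oleate, a monounsaturated fatty acid. Per the design text, 42% of calories came from carbohydrate and 42% from fat in both. The contrast is between whole diets and not between single nutrients. The labels used here give no fatty acid or sugar makeup of the Western diet and no age. Chow (n = 8) served as the series' control, and sucrose/palmitate (n = 8), which pairs sucrose with a saturated fatty acid, is given beside some results. RNA was counted on the NanoString nCounter Mouse Immunology panel, in which barcoded probes bound to RNA are counted without amplification.

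Fat tissue holds, beside adipocytes, resident macrophages, lymphocytes, mast cells, endothelium and fibroblasts. In obesity, macrophages gather around dying adipocytes and take up their lipid, and adipocyte products such as adipsin decline. Transforming growth factor beta signals through receptor kinases and Smad transcription factors. It shapes fibrosis and restrains adipocyte differentiation, while nuclear factor kappa B drives cytokine and chemokine genes.

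Of 547 immune genes, 491 averaged 10 counts or more across the series and were tested. Scaled counts below are counts scaled to 14 reference genes. Differences are log2 of Western diet over sucrose/oleate ± SE from edgeR, with p-values adjusted over the 491 genes and a threshold of 0.05. Total counts of the immune genes were 382918 to 697086 on the Western diet and 416932 to 657183 on sucrose/oleate. No reference gene of 14 differed past the threshold (log2 differences from -0.20 to 0.30), and Polr2a came closest (-0.16, edgeR adjusted p = 0.063). Because the counts were scaled to these same genes, a shift common to them could not show. The labels do not say that each sample was a separate mouse, so p-values measure the spread between these samples.

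The spiked-in positive controls separated the 2 diets. These are synthetic targets added to each reaction, so their ratio does not depend on the tissue. The ratio of control A over control B was 3.27 to 3.43 on the Western diet (mean 3.37 ± 0.0609, SD, n = 7), against 2.92 to 3.07 on sucrose/oleate (mean 2.99 ± 0.0483, SD, n = 9). The ranges did not overlap, and the exact two-sided permutation p was 8.74e-05, the smallest that 11440 splits can give (adjusted p = 0.00035 over 4 assay measures). Chow lay at 3.17 to 3.39 and sucrose/palmitate at 2.99 to 3.56. Within these 16 samples, diet and whatever set this ratio cannot be told apart. The other 3 assay measures, total count, reference gene level and negative control level, gave adjusted p = 0.97 each by the same permutation test.

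**Figure D1:**
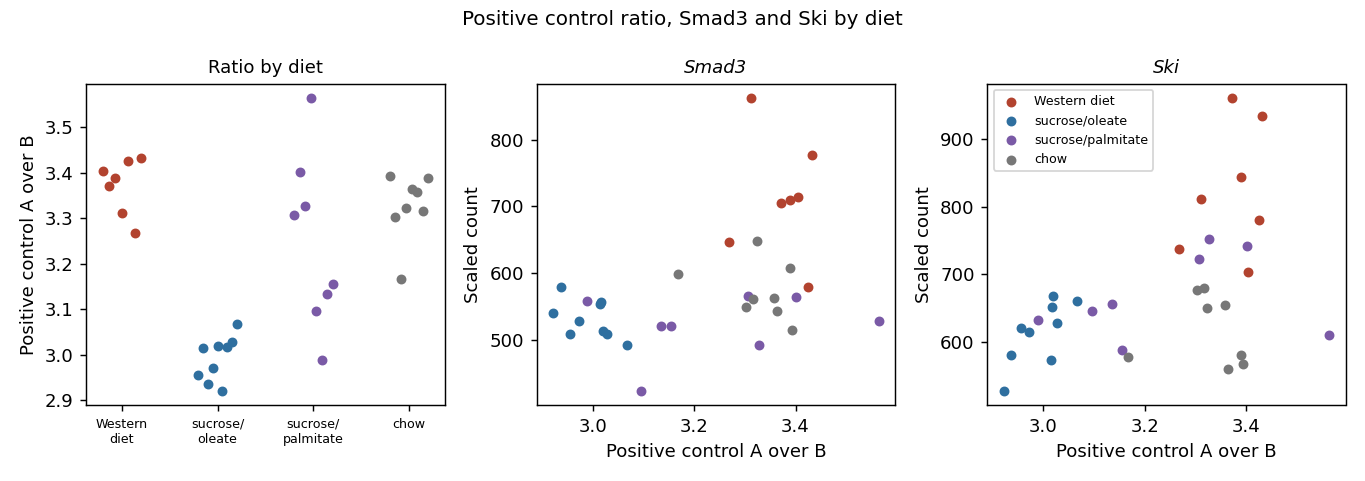
The left panel plots the ratio of positive control A over B per sample for 4 diets, and the other panels plot the scaled counts of Smad3 and Ski against that ratio. All 7 Western diet samples (3.27 to 3.43) lie above all 9 sucrose/oleate samples (2.92 to 3.07), while chow (3.17 to 3.39) overlaps the Western diet range.

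Some libraries stood apart in single genes, as judged by Dixon's 95% critical value for the gap to the nearest library over the range of the group. Western diet library 2 was far above its group in 49 genes and far below it in 36. Sucrose/oleate library 2 was far above its group in 79 genes and below it in 2. Every other library did so in at most 7 genes in either direction. Western diet library 6 carried high levels of several genes that library 2 also had. Results are therefore given with and without these 3 libraries, a choice made after their values were seen.

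The 2 diets gave similar levels of most genes on the panel. Of the 491 genes, 10 were higher and 7 were lower on the Western diet, together 3.46% (2.04% higher, 1.43% lower). An unadjusted p under 0.05 was found for 87 genes, 56 of them with a positive difference (11.4%) and 31 with a negative one (6.31%), together 17.7%. The median difference over all genes was 0.02, and 437 genes, or 89% of those tested, lay within 0.5 log2 units of no difference. For 422 genes the 95% confidence interval of the difference lay wholly within 1 log2 unit of 0. Each diet differed far more from chow: 161 genes rose (32.8%) and 39 fell (7.94%) on the Western diet, together 40.7%. On sucrose/oleate 142 rose (28.9%) and 38 fell (7.74%), together 36.7%. These comparisons share the chow samples and the diet groups, so their calls are not independent of each other.

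Without the 3 libraries, 22 genes were higher and 0 were lower, and 4 of the 17 calls were kept: Smad3, Ski, Nfkbiz and Mapkapk2. In that comparison 95 genes had an unadjusted p under 0.05. With total count scaling 8 genes were higher and 1 was lower. With the replicate number as a block only Smad3 and Ski passed. That fit ended every other call, although the paragraphs on single genes below do not repeat it. With the control ratio in the fit as a covariate, Smad3 alone passed, although all 17 genes kept their sign. The median SE then was 0.31, against 0.20 without the covariate.

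**Figure D2:**
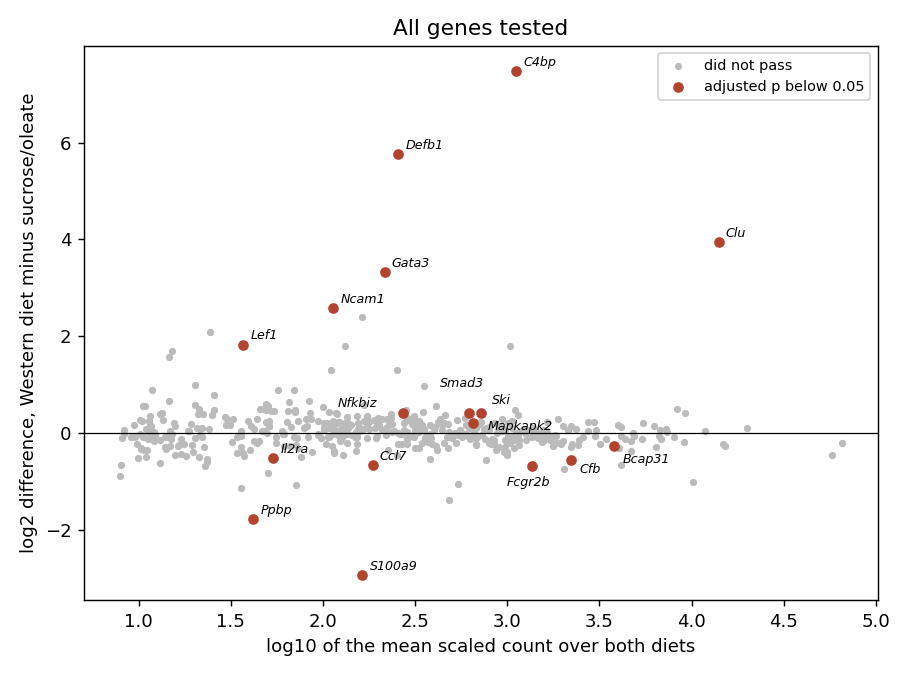
Each of the 491 genes is drawn by its log10 mean scaled count over both diets and its log2 difference, Western diet minus sucrose/oleate. Red points are the 17 genes past the threshold, and most of the rest lie within 0.5 log2 units of 0.

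Smad3 and Ski, both of the transforming growth factor beta pathway, gave the smallest p-values. Smad3 encodes a receptor-activated Smad, the transcription factor that carries the signal of activated receptors to the nucleus. Ski encodes a corepressor that binds Smad proteins and restrains transcription of their targets. Their promoters, from RefSeq on mouse build GRCm38.p6, are shown because these genes carried the best supported differences. Each runs from 250 bases before the start to 50 after it, 5′ to 3′ on the gene's own strand, the minus strand for both. Smad3 is at chr9:63757945-63758244 and Ski at chr4:155222486-155222785. Capitals mark the GC box, GGGCGG or CCGCCC on the other strand.
Smad3: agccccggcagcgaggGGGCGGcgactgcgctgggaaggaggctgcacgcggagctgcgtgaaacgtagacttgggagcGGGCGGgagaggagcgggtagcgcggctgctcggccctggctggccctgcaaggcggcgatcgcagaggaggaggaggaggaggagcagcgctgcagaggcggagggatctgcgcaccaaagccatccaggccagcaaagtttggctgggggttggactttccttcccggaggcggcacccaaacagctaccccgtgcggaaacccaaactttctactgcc
Ski: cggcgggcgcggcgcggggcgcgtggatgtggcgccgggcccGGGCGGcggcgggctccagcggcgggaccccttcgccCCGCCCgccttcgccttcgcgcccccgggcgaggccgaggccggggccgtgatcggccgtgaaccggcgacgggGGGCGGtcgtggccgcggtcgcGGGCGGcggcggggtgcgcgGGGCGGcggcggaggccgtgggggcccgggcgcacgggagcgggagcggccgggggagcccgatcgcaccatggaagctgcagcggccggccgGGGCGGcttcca
The Smad3 promoter held 2 GC boxes and the Ski promoter 6. Of all 32851 promoter windows of this length in the same table, 35.7% held at least 1 and 2.71% held 5 or more. The Smad box, CAGAC or GTCTG on the other strand, was in neither window, against 49.6% of all windows. Both windows were rich in G and C, at 67.7% for Smad3 and 85.3% for Ski, where the median window had 52.7%. Letters that match a motif are a description and show no binding.

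Smad3 had scaled counts of 579 to 862 with a median of 709.6 on the Western diet, against 492.7 to 579 with a median of 528 on sucrose/oleate. Of the 7 Western diet libraries, 6 lay above every sucrose/oleate library, and the lowest, library 5, lay just below the highest sucrose/oleate library. The difference was 0.43 ± 0.070 (edgeR adjusted p = 0.000131), or 1.34-fold, with 7 of 7 Western diet libraries above the sucrose/oleate mean. It was 0.46 without the 3 libraries (adjusted p = 0.000144) and 0.48 with the control ratio as a covariate (adjusted p = 0.0466).

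Ski had 704 to 959.7 with a median of 812 on the Western diet, against 529 to 668 with a median of 621 on sucrose/oleate. The lowest Western diet library was above the highest sucrose/oleate library, and no other tested gene separated the groups in this way (1 gene, 0.204%). The difference was 0.42 ± 0.074 (edgeR adjusted p = 0.000187). It was 0.40 without the 3 libraries (adjusted p = 0.0021), and 0.27 with the control ratio as a covariate, which did not pass (adjusted p = 0.33).

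The control ratio of chow overlapped that of the Western diet and lay wholly above that of sucrose/oleate. Its part in the differences from chow was not tested. Against chow, Smad3 rose by 0.32 ± 0.072 on the Western diet (edgeR adjusted p = 0.00058), and the sucrose/oleate difference was -0.11 ± 0.068 (adjusted p = 0.21). Ski rose by 0.41 ± 0.076 on the Western diet (adjusted p = 4.5e-05), and the sucrose/oleate difference was -0.01 ± 0.072 (adjusted p = 0.92). Against sucrose/palmitate, 13 genes were higher on the Western diet (2.65%) and 17 lower (3.46%), together 6.11%. Among them, Smad3 was higher by 0.45 (adjusted p = 6.4e-05), and Ski by 0.30 (adjusted p = 0.0115). The Western diet thus stood above chow and both sucrose diets in these genes.

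Of 9 tested genes on the transforming growth factor beta list, Smad3 was higher and none was lower, with a median of 0.04. Ski was not on that list. Tgfbr1, the type I receptor, had 1642 to 2299.5 with a median of 2006 on the Western diet, against 1830.1 to 2940.5 with a median of 2461 on sucrose/oleate. Its difference was -0.30 with an interval from -0.56 to -0.03, which did not pass (adjusted p = 0.23), although the Western diet libraries lay below the sucrose/oleate mean in 7 of 7 cases. Tgfbr1 rose against chow on both diets, by 1.04 on the Western diet and 1.34 on sucrose/oleate. The ligands gave differences of -0.04 for Tgfb1, 0.54 for Tgfb2 and 0.16 for Tgfb3, none past the threshold.

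Mapkapk2 and Nfkbiz were the other genes higher on the Western diet without resting on a single library. Mapkapk2 encodes the kinase below p38 that stabilises cytokine messages. It had 649.6 to 744 with a median of 711 on the Western diet, against 547 to 715 with a median of 591 on sucrose/oleate. Only sucrose/oleate library 6 reached into the Western diet range. The difference was 0.21 ± 0.057 (edgeR adjusted p = 0.0278) and was 0.23 without the 3 libraries (adjusted p = 0.025). It did not pass with TMM scaling (0.20, adjusted p = 0.0945), total count scaling (0.25, adjusted p = 0.0634), only these 2 groups in the fit (0.21, adjusted p = 0.20) or the control ratio as a covariate (0.25, adjusted p = 0.23). The call was lost, with single libraries left out, without Western diet library 4 (adjusted p = 0.061) or 7 and without sucrose/oleate library 4 or 9.

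Nfkbiz encodes the nuclear inhibitor protein zeta, an inducible cofactor of nuclear factor kappa B. It had 240.3 to 386 with a median of 309 on the Western diet, against 161 to 421 with a median of 216 on sucrose/oleate. Sucrose/oleate library 2 held the highest value of both groups, and the other 8 sucrose/oleate libraries lay below every Western diet library. The difference was 0.42 ± 0.12 (edgeR adjusted p = 0.0445). It was 0.70 without the 3 libraries (adjusted p = 2.6e-06), which is over 1.5 times as large. It passed with single libraries left out in 4 of 16 fits, those without Western diet library 1, 2 or 6 or sucrose/oleate library 2, and the highest adjusted p was 0.114. The call also ended with only these 2 groups in the fit (adjusted p = 0.22) and with the control ratio as a covariate (0.34, adjusted p = 0.51). Nfkbiz was above chow on both diets, by 0.80 on the Western diet and 0.37 on sucrose/oleate (adjusted p = 0.0116). Of the 23 genes of the nuclear factor kappa B list, Nfkbiz was higher and none was lower, with a median of 0.08. The subunits Rela and Nfkb1 had differences of 0.07 and 0.16, and Nfkbia, an inhibitor that the pathway itself induces, had 0.27 (adjusted p = 0.21).

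**Figure D3:**
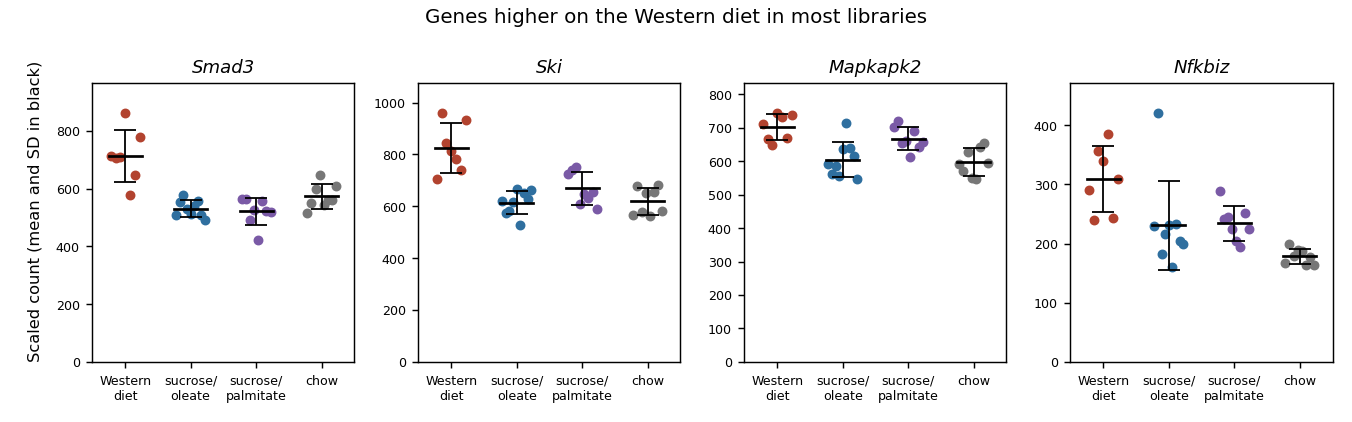
Scaled counts of 4 genes per sample on the Western diet, sucrose/oleate, sucrose/palmitate and chow, with the mean and SD in black. Ski separates the Western diet (lowest 704) from sucrose/oleate (highest 668), and 1 sucrose/oleate library of Nfkbiz, at 421, lies above the Western diet libraries.

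Genes lower on the Western diet included an alternative complement protein, a monocyte attractant and a pair of immune receptors. Cfb encodes factor B, the protease of the alternative complement pathway. It had 1357.8 to 2318 with a median of 1721 on the Western diet, against 1984 to 3528 with a median of 2273 on sucrose/oleate. The lowest 5 libraries of both groups were all on the Western diet. The difference was -0.56 ± 0.14 (edgeR adjusted p = 0.0209) and -0.40 without the 3 libraries (adjusted p = 0.13). Nor did Cfb pass with total count scaling (adjusted p = 0.0572), only these 2 groups (adjusted p = 0.0984) or the control ratio as a covariate (adjusted p = 0.30). Against chow, Cfb fell by 0.87 on the Western diet, and the sucrose/oleate difference was -0.32 (adjusted p = 0.054). Of 27 complement genes, C4bp was higher and Cfb lower, with a median of 0.04. C3, the central component that factor B acts with, had a median of 7739 on the Western diet, against 6715 on sucrose/oleate, and a difference of 0.03 (interval -0.31 to 0.37).

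Ccl7 encodes monocyte chemotactic protein 3, an attractant of monocytes. It had 108 to 179 with a median of 146 on the Western diet, against 152 to 304 with a median of 226 on sucrose/oleate. Of the 9 sucrose/oleate libraries, 7 lay above every Western diet library. The difference was -0.66 ± 0.18 (edgeR adjusted p = 0.0278), and -0.47 without the 3 libraries (adjusted p = 0.17). The call was lost, with single libraries left out, without Western diet library 2 or 6 (highest adjusted p = 0.0764) or sucrose/oleate library 4. Ccl7 also did not pass with total count scaling (adjusted p = 0.0634) or the control ratio as a covariate (adjusted p = 0.23). Ccl7 rose against chow on sucrose/oleate, by 0.72 (adjusted p = 0.0011), while the Western diet difference was 0.06 (adjusted p = 0.81). Its neighbour in function Ccl2 had 452 to 1151 with a median of 896 on the Western diet, against 927 to 1295 with a median of 1072 on sucrose/oleate. That difference was -0.40 (interval -0.89 to 0.09) and did not pass (adjusted p = 0.39). Of 25 chemokine genes none was higher and 2, Ccl7 and Ppbp, were lower, with a median of -0.11.

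Fcgr2b encodes the inhibitory receptor for immunoglobulin G. It had 781 to 1438 with a median of 969 on the Western diet, against 1023 to 3537 with a median of 1285 on sucrose/oleate. Sucrose/oleate library 2 held the highest value, and 4 Western diet libraries lay below every sucrose/oleate library. The difference was -0.67 ± 0.20 (edgeR adjusted p = 0.0445), and -0.38 without the 3 libraries (adjusted p = 0.25), a change of over 1.5 times. It passed with single libraries left out in 7 of 16 fits, and was lost without Western diet library 1, 2, 3, 5 or 6 or sucrose/oleate library 1, 2, 4 or 5 (highest adjusted p = 0.112, without sucrose/oleate library 2). Total count scaling (adjusted p = 0.0634), only these 2 groups (adjusted p = 0.22) and the control ratio as a covariate (adjusted p = 0.47) ended the call as well. Fcgr2b fell by 0.83 against chow on the Western diet (adjusted p = 0.0012), and the sucrose/oleate difference was -0.15 (adjusted p = 0.56). Of 7 Fc receptor genes, Fcgr2b was the only 1 past the threshold, with a median of -0.21. The activating receptors Fcgr1, Fcgr3 and Fcgr4 had differences of 0.06, -0.24 and -0.21.

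Il2ra encodes the alpha chain of the interleukin 2 receptor, high on regulatory T cells and activated lymphocytes. It had 37.6 to 52.6 with a median of 43.2 on the Western diet, against 47.5 to 99 with a median of 59.6 on sucrose/oleate. Of the 9 sucrose/oleate libraries, 6 lay above every Western diet library. The difference was -0.52 ± 0.15 (edgeR adjusted p = 0.0445), and -0.55 without the 3 libraries (adjusted p = 0.058). With single libraries left out it passed in 8 of 16 fits, and was lost without Western diet library 1, 2, 3 or 6 or sucrose/oleate library 4, 6, 8 or 9 (highest adjusted p = 0.136, without sucrose/oleate library 6). Il2ra also missed with total count scaling (adjusted p = 0.0642), only these 2 groups (adjusted p = 0.13) and the control ratio as a covariate (adjusted p = 0.34). The Western diet was also below chow, by -0.47 (adjusted p = 0.011), and below sucrose/palmitate, by -0.92 (adjusted p = 6.4e-05). Foxp3, the transcription factor that defines regulatory T cells, had a difference of 0.02. On the regulatory T cell and checkpoint list 1 of 12 genes passed, and on the interleukin receptor list 1 of 31, in both cases Il2ra. The list medians were -0.12 and 0.01.

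Bcap31 encodes an endoplasmic reticulum protein that escorts membrane proteins, among them class I antigen-presenting molecules. It had 2916 to 3944 with a median of 3381 on the Western diet, against 3681.5 to 5302 with a median of 4003 on sucrose/oleate. The difference was -0.27 ± 0.080 (edgeR adjusted p = 0.0445), and -0.22 without the 3 libraries (adjusted p = 0.17). With single libraries left out it passed in 4 of 16 fits, those without Western diet library 1 or 5 or sucrose/oleate library 1 or 3, and the highest adjusted p was 0.136. TMM scaling (adjusted p = 0.147), total count scaling (adjusted p = 0.23), DESeq2 (adjusted p = 0.17), only these 2 groups (adjusted p = 0.21) and the control ratio as a covariate (adjusted p = 0.30) each ended the call. Bcap31 fell against chow on both diets, by 0.78 on the Western diet and by 0.51 on sucrose/oleate, and the Western diet was below sucrose/palmitate by -0.44 (adjusted p = 0.00054). It was the only 1 of 20 cell death genes past the threshold, with a list median of 0.10.

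**Figure D4:**
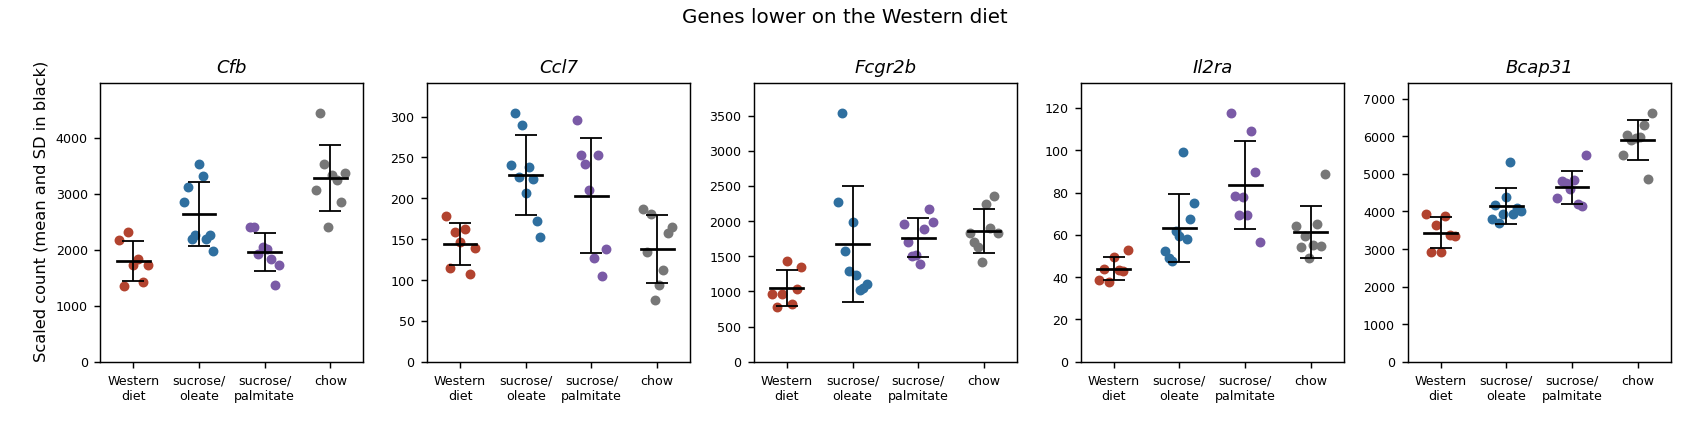
Scaled counts of 5 genes per sample on the Western diet, sucrose/oleate, sucrose/palmitate and chow, with the mean and SD in black. The groups overlap in every panel, and for Fcgr2b 1 sucrose/oleate library, at 3537, lies far above the others.

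The remaining calls rested on 1 or 2 libraries each. C4bp, which encodes the C4b-binding protein, an inhibitor of the classical complement pathway, had 4.41 to 15239 with a median of 22.9 on the Western diet, against 4.21 to 25.7 with a median of 9.90 on sucrose/oleate. Library 2 of the Western diet held 15239 and the next library 201. The sucrose/oleate values were close to the negative control probes, whose mean per library was 5.25 to 8.75 in unscaled counts, so the size of the difference is uncertain. The fitted difference was 7.48 ± 1.34 (edgeR adjusted p = 0.000207), and 2.06 without the 3 libraries (adjusted p = 0.24). Leaving out library 2 alone ended the call (adjusted p = 0.298).

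Clu encodes clusterin, a secreted chaperone. Western diet library 2 had 173670, while the other 6 Western diet libraries had 1038 to 3378 and the sucrose/oleate libraries 783 to 2907. The group medians were 1774 on the Western diet, against 1612 on sucrose/oleate. In library 2 Clu made up 31.9% of the counts of all immune genes (exact 95% interval 31.75 to 32.05, counting error only), against 0.144 to 0.608% in the other 15 libraries. The fitted difference was 3.95 ± 0.72 (edgeR adjusted p = 0.000208), and 0.22 without the 3 libraries (adjusted p = 0.82). Leaving out library 2 alone ended the call (adjusted p = 0.96).

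Defb1, a beta defensin of epithelia, and Gata3, a transcription factor of T cells, innate lymphoid cells and several epithelia, were high in Western diet libraries 2 and 6. Defb1 had 1255 in library 2 and 2177 in library 6, and 7.21 to 32.1 in the other Western diet libraries, against 4.24 to 15.6 on sucrose/oleate. Gata3 had 681 in library 2 and 1587 in library 6, and 42.4 to 206 in the other Western diet libraries, against 15.5 to 62.5 on sucrose/oleate. The differences were 5.76 ± 1.47 for Defb1 (edgeR adjusted p = 0.0256) and 3.32 ± 0.90 for Gata3 (adjusted p = 0.0278). Without the 3 libraries they were 0.99 for Defb1 (adjusted p = 0.81) and 1.31 for Gata3 (adjusted p = 0.49). Leaving out Western diet library 6 alone ended both calls (adjusted p = 0.0764 for Defb1 and 0.156 for Gata3), and that of Gata3 was also lost without sucrose/oleate library 4 or 6.

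Ncam1, a neural and natural killer cell adhesion molecule, and Lef1, a transcription factor of the Wnt pathway, were high in Western diet library 2. Ncam1 had 1045 there and 19.2 to 139 in the other Western diet libraries, against 15.5 to 65.5 on sucrose/oleate. Lef1 had 297 there and 13.9 to 23.8 in the other Western diet libraries, against 7.59 to 33.2 on sucrose/oleate. The differences were 2.58 ± 0.69 for Ncam1 (edgeR adjusted p = 0.0278) and 1.82 ± 0.54 for Lef1 (adjusted p = 0.0445). Without the 3 libraries they were 0.77 for Ncam1 (adjusted p = 0.60) and 0.23 for Lef1 (adjusted p = 0.87). Leaving out Western diet library 2 alone ended both calls (adjusted p = 0.567 for Ncam1 and 0.88 for Lef1). Ncam1 was also lost without sucrose/oleate library 4, and Lef1 without any of 8 sucrose/oleate libraries, all but library 5.

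Some genes of the epithelium list were high in the same libraries. Of 12 tested genes on this list, 2, Clu and Defb1, were higher, with a median of 0.44. The summed level was 1518 to 178700 on the Western diet, against 1248 to 4089 on sucrose/oleate. Clu alone, at 173670, made up most of the highest sum, that of Western diet library 2. Libraries 2 and 6 of the Western diet each exceeded all 14 other libraries in 5 of the 12. The share of all tested genes in which they did so was not counted. By their mean log2 level over the list, neither library was set apart by the rule used for the alternatives. Cd24a, a surface protein of epithelia and immature lymphocytes, had 3274 in library 2 and 6310 in library 6, against 178 to 1043 in the other libraries of both diets. Ceacam1, an adhesion molecule, had 1696 in library 6 and 82.5 in library 2, while Muc1, an epithelial mucin, was near the negative controls in both, at 8.25 and 9.95. Library 2 also had the lowest Emr1, Itgax and Cd36 of all 16. The part of epithelial RNA in these calls was not tested beyond leaving the libraries out.

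S100a9 and Ppbp were lower on the Western diet through sucrose/oleate library 2. S100a9 encodes a subunit of calprotectin, abundant in neutrophils, and Ppbp a platelet chemokine. S100a9 had 11.9 to 85 with a median of 31.3 on the Western diet, against 24.9 to 2051 with a median of 77.1 on sucrose/oleate, where the next highest library had 120.2. Ppbp had 11.4 to 29.3 with a median of 17.8 on the Western diet, against 17.3 to 381 with a median of 26.3 on sucrose/oleate, where the next highest had 37.9. The differences were -2.93 ± 0.86 for S100a9 (edgeR adjusted p = 0.0445) and -1.78 ± 0.47 for Ppbp (adjusted p = 0.0278). Without the 3 libraries they were -0.70 for S100a9 (adjusted p = 0.70) and -0.43 for Ppbp (adjusted p = 0.46). Leaving out sucrose/oleate library 2 alone ended both calls (adjusted p = 0.509 for S100a9 and 0.347 for Ppbp). S100a9 was also lost without Western diet library 1, 2, 4, 5, 6 or 7 or sucrose/oleate library 4. Of 6 neutrophil genes, S100a9 was lower and none was higher. The list median was -0.68, and 0.16 without the 3 libraries.

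**Figure D5:**
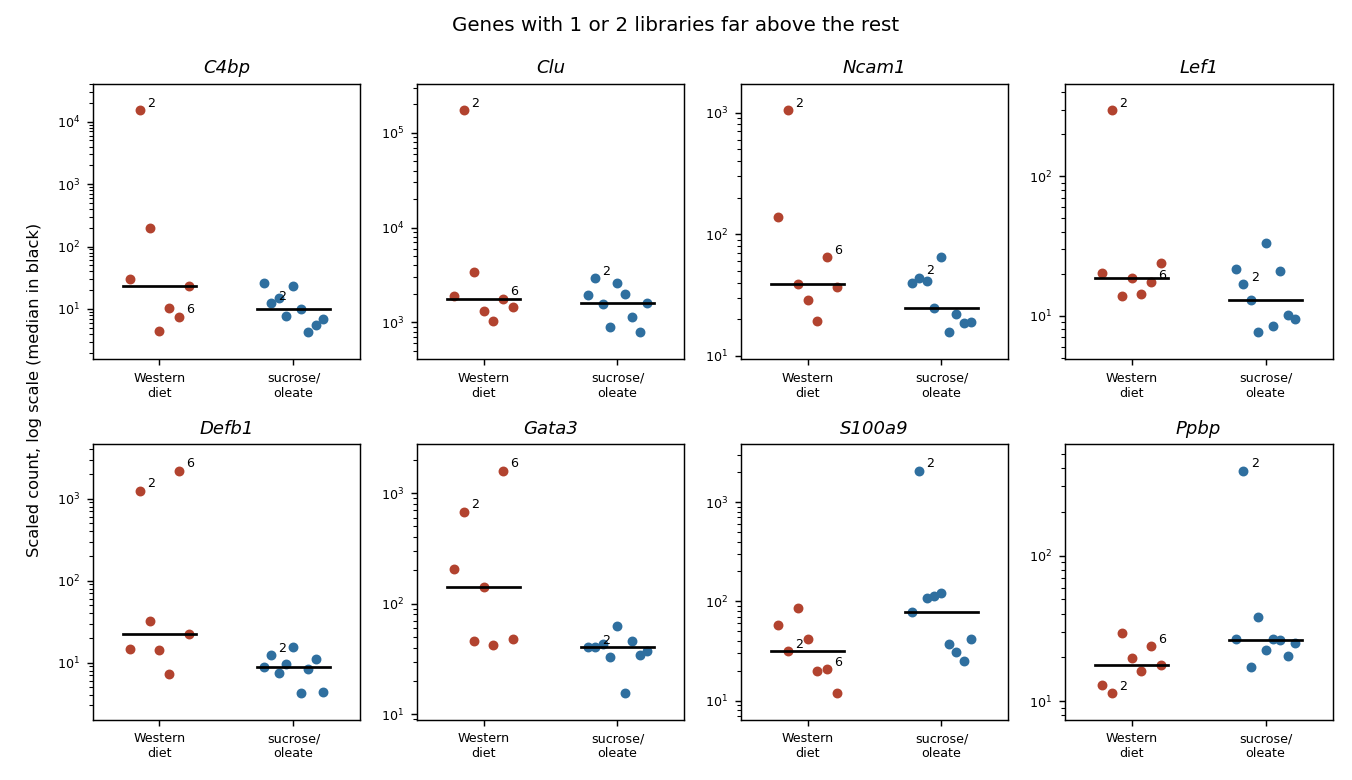
Scaled counts on a log axis for 8 genes in the 7 Western diet and 9 sucrose/oleate libraries, with the median in black. Numbers mark Western diet libraries 2 and 6 and sucrose/oleate library 2, which hold the highest points, such as 173670 for Clu and 2051 for S100a9.

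Adipocyte genes were present in every library, as the tissue label implies, and none of the 3 tested passed. Cfd encodes adipsin, or complement factor D, which fat cells secrete. It had 4135 to 8851 with a median of 7195 on the Western diet, against 5851 to 32851 with a median of 9199.5 on sucrose/oleate. The sucrose/oleate values were widely spread, and the difference of -1.01 had an interval from -1.93 to -0.10 (adjusted p = 0.23). Cfd fell against chow by 3.38 on the Western diet and by 2.37 on sucrose/oleate. In bulk tissue, fewer cells of a type and less RNA per cell cannot be told apart.

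Cd36, the fatty acid transporter of adipocytes, macrophages and endothelium, had 18964 to 57749 with a median of 54982 on the Western diet, against 57617 to 73027 with a median of 69178 on sucrose/oleate. Of the 9 sucrose/oleate libraries, 8 lay above every Western diet library. The difference of -0.46 had an interval from -0.76 to -0.17 and narrowly missed the threshold (edgeR adjusted p = 0.066). It passed with TMM scaling (-0.52, adjusted p = 0.0268) and in DESeq2 (-0.51, adjusted p = 0.0054), and was -0.25 without the 3 libraries (adjusted p = 0.25). Cd36 fell by 0.63 against chow on the Western diet (adjusted p = 0.00099), and the sucrose/oleate difference was -0.16 (adjusted p = 0.37). Pparg, the nuclear receptor that drives fat cell formation, had a median of 569 on the Western diet, against 588 on sucrose/oleate, and its interval was -0.34 to 0.29. Both diets were below chow in Pparg, by -0.79 on the Western diet and by -0.76 on sucrose/oleate.

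The summed level of the 3 adipocyte genes was 23954 to 65501 on the Western diet, against 68844 to 105140 on sucrose/oleate and 83966 to 303890 on chow. Cd36 made up most of this sum in every library of the Western diet and of sucrose/oleate. Cd1d1, which presents lipid antigens to natural killer T cells, had a median of 3060.5 on the Western diet, against 5006.5 on sucrose/oleate. Its difference was -0.66 (interval -1.09 to -0.23, adjusted p = 0.070). Of the 13 genes of the class I and immunoproteasome list none passed, with a median of -0.03.

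No gene of the general macrophage list passed between the diets, while most of them rose against chow on each. Emr1 encodes F4/80, the mouse macrophage marker, now named Adgre1. It had 1180 to 6901 with a median of 4964 on the Western diet, against 2714 to 4910.5 with a median of 4184 on sucrose/oleate. The difference was 0.12, with an interval from -0.40 to 0.64. Against chow Emr1 rose by 1.26 on the Western diet and by 1.14 on sucrose/oleate. Over the 23 genes of this list the median difference was -0.06. Against chow 16 of these rose and 1 fell on the Western diet, and 19 rose on sucrose/oleate. Over all genes tested 32.8% rose and 7.94% fell on the Western diet, and 28.9% rose on sucrose/oleate.

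Genes of lipid-associated macrophages, which take up the lipid of dying adipocytes, did not pass either, 0 of 5 with a median of -0.06. Trem2, their lipid receptor, had a median of 2075 on the Western diet, against 1928 on sucrose/oleate, with an interval from -0.66 to 0.54. Itgax, which encodes CD11c, had a median of 6785 on the Western diet, against 6826 on sucrose/oleate, with an interval from -0.95 to 0.38. Cd9, a tetraspanin, had a median of 6348 on the Western diet, against 7354 on sucrose/oleate, with a difference of -0.05. Against chow 3 of the 5, Trem2, Itgax and Cd9, rose on each diet, and 1, Cd36, fell on the Western diet. Over all genes tested 32.8% rose and 7.94% fell on the Western diet, and 28.9% rose on sucrose/oleate. Itgax rose by 1.69 on the Western diet and by 1.97 on sucrose/oleate.

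Of 6 resident macrophage genes none passed, with a median of -0.13. Cd163, the haptoglobin and haemoglobin scavenger receptor, had a median of 363.5 on the Western diet, against 362 on sucrose/oleate, and the difference of -0.36 was 0.05 without the 3 libraries. Ccl24, an eosinophil attractant, had a median of 99.4 on the Western diet, against 96.9 on sucrose/oleate. Marco, a scavenger receptor, had a median of 34.6 on the Western diet, against 39 on sucrose/oleate, with a wide interval from -0.48 to 1.67. On each diet 4 of these 6 genes fell against chow, Cd163 by 1.33 on the Western diet and by 0.97 on sucrose/oleate. Over all genes tested 7.94% fell on the Western diet and 7.74% on sucrose/oleate.

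Most B cell genes had positive differences, but none of the 14 passed. The list median was 0.32, and 13 of 14 differences were positive, against a median of 0.02 over all genes. Ms4a1, which encodes the B cell marker CD20, had 49.8 to 385 with a median of 132 on the Western diet, against 19.8 to 108 with a median of 60.4 on sucrose/oleate. Western diet libraries 4 and 7, at 385 and 239, were highest. The difference was 1.30 (interval 0.44 to 2.15, adjusted p = 0.070), and 1.48 without the 3 libraries (edgeR adjusted p = 0.060). With single libraries left out it passed in 2 of 16 fits, and the highest adjusted p was 0.287, without Western diet library 4. Pax5, the B lineage transcription factor, had 1.00 (adjusted p = 0.099) and Cd79b of the B cell receptor 0.89. Against chow 10 of the 14 rose on the Western diet, where 32.8% of all genes tested did. On sucrose/oleate 4 of the 14 rose, near the 28.9% of all genes. Of 11 lymph node genes none passed, with a median of 0.09.

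Cxcl13, the chemokine that draws B cells into follicles, had 79.3 to 795 with a median of 154 on the Western diet, against 22.6 to 5490 with a median of 106 on sucrose/oleate. Sucrose/oleate library 2 held 5490 and the next library of that diet 182. The fitted difference of -1.39 (adjusted p = 0.39) was 1.60 without the 3 libraries (adjusted p = 0.17), so its sign depended on them.

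Of 23 T cell genes, Gata3 alone passed, with a median of -0.02, and Cd3e, a chain of the T cell receptor complex, had medians of 36.03 on both diets. Of 19 natural killer and cytotoxic genes, Ncam1 alone passed, through Western diet library 2. Of the 19 differences 15 were negative, with a median of -0.32, against 0.02 over all genes. Gzma, a cytotoxic granule protease, had -0.82 (adjusted p = 0.07) and Klrd1, a natural killer receptor, -0.37. Without the 3 libraries they were -0.51 for Gzma (edgeR adjusted p = 0.25) and -0.16 for Klrd1 (adjusted p = 0.76). Among 4 mast cell genes none passed, with a median of 0.36, and Kit and Fcer1a had 0.47 and 0.49.

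Of 17 inflammatory cytokine genes none passed, with a median of -0.09. Tnf had a median of 40.7 on the Western diet, against 31.6 on sucrose/oleate. Il1b had 24.7 on the Western diet, against 23.3 on sucrose/oleate, with sucrose/oleate library 2 at 199. Il6 had 7.42 on the Western diet, against 9.72 on sucrose/oleate, near the negative controls. The Il1b interval was wide, from -1.35 to 0.55, and includes sizeable differences in either direction. How far the low level or sucrose/oleate library 2 widened it was not tested.

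Of 11 matrix and repair genes none passed, with a median of -0.10. Plau, the urokinase protease, had a median of 2409 on the Western diet, against 2650 on sucrose/oleate, and rose against chow by 1.00 on the Western diet and by 1.14 on sucrose/oleate. Lair1, an inhibitory collagen receptor of leukocytes, had 693 on the Western diet, against 698 on sucrose/oleate, and rose against chow by 1.80 on the Western diet and by 2.02 on sucrose/oleate. Tfrc, the transferrin receptor and the only gene tested of the iron list, had 729.7 on the Western diet, against 797 on sucrose/oleate, with a difference of -0.14.

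In all, 18 of 31 gene lists held no gene past the threshold, with list medians from -0.46 for adipocyte genes to 0.36 for mast cell genes. The interferon response list had 0 of 25 and a median of 0.06, with Cxcl11 highest at 0.88 and Cxcl9 lowest at -0.54. Toll-like receptor genes had 0 of 18 and a median of 0.06, and Tlr4, the endotoxin receptor, had -0.25. The list of kinases and transcription factors of cytokine receptors had 0 of 17 and 0.08. Class II antigen presentation had 0 of 9 and 0.10, and dendritic cell and costimulation genes 0 of 16 and -0.02. Endothelial and adhesion genes had 0 of 10 and -0.10, and integrins 0 of 9 and -0.13. On the autophagy and stress list 1 of 13 passed, Mapkapk2, with a median of 0.08.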

How the data were processed

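Total RNA of epididymal white adipose tissue was hybridised to the nCounter immunology panel. The deposited values are raw counts per probe: all are whole numbers, and sample totals differ. The software that made them is not given in the sources used here. The lowest value is 1, in 151 of 27600 values.

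Size factors came from the geometric mean of 14 reference genes. In R 4.3.3, edgeR 4.0.16 fitted 1 mean for each of the 6 groups to all 48 samples (glmQLFit, glmQLFTest), without a block. Tests covered 491 of 547 genes, those averaging 10 counts or more, two-sided, with Benjamini-Hochberg adjustment over them and a threshold of 0.05. The fit was tested on simulated data. Intervals use the fit's SE. A level below the negative control probes (8 probes) cannot be told from background, and the number of samples limits the precision. Assay measures were compared with an exact permutation test.

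Genes named are, among those that passed, the 12 most raised and 12 most lowered, the 12 smallest p-values, up to 4 called members of each list and 24 genes always reported, which came to 40 genes. Other list members were picked as examples after their values were seen. The members, the 31 lists and the tests were chosen with earlier results of these data known. Lists are described by counts and medians, with no test. Some genes stayed in the fit and in the counts but are not reported here.

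Same-numbered libraries of the 2 diets had deviations correlating at -0.503 to 0.167 over 7 pairs (mean -0.0094), against a mean of 0.0095 for differently numbered ones. So few pairs cannot show whether a replicate number stands for something shared, such as an assay run. Among 120 pairs of libraries, chi-square over degrees of freedom was 5.14 or more, so none was a copy. Of 561 gene probes, 558 matched a RefSeq name table. Alternatives were TMM and total count scaling, DESeq2 1.42.0, other filters, only these 2 groups, the replicate number as a block, the control ratio as a covariate, leaving out each library, and leaving out libraries high in epithelial or lymph node genes. Leaving out 3 libraries together was added after the data were seen. No library was left out of the main results.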

Additional observations from a re-analysis of the deposited data

Results flagged for a closer look

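A library was picked out where it lay far from the other libraries of its diet. Both diets were examined for 44 values, 88 groups in all, and 18 groups gave such a library. The values include the called genes, some of which passed only through these same libraries. The 18 also come from few libraries, so their number cannot be set against chance.

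In Western diet library 2, C4bp stood at 15239 (next 201), Clu at 173670 (next 3378), Ncam1 at 1045 (next 139) and Lef1 at 297 (next 23.8), all far above the group, and Cd36 at 18964 (next 44055), far below it. In Western diet library 6, Gata3 stood at 1587 (next 681). In Western diet library 4, Marco stood at 165 (next 73.6) and Cxcl13 at 795 (next 383).

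Sucrose/oleate library 2 held 8 of the 18. It had Nfkbiz at 421 (next 234), S100a9 at 2051 (next 120.2), Ppbp at 381 (next 37.9) and Fcgr2b at 3537 (next 2267). It also had Cd163 at 1228 (next 556), Il1b at 199 (next 33.5), Cxcl13 at 5490 (next 182) and C3 at 14026 (next 8163). In sucrose/oleate library 6, Bcap31 stood at 5302 (next 4387) and Cd1d1 at 9144 (next 5818).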

How the results depend on the processing

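Against 10 genes higher and 7 lower, total count scaling gave 8 and 1, DESeq2 17 and 12, only these 2 groups 5 and 1, the control ratio as a covariate 1 and 0, and leaving out the 3 libraries 22 and 0. The replicate number as a block gave 2 and 0, and what the number stands for is not known. With each library left out, 5 to 15 genes were higher and 2 to 9 lower. Only 5 were higher without sucrose/oleate library 4. Only 2 were lower without Western diet library 2, Western diet library 6 or sucrose/oleate library 4, and 4 without Western diet library 3 or sucrose/oleate library 2. Smad3, Ski and Cfb passed in all 16 of these refits, and Smad3 alone in all 10 other alternatives. Of those 10, Ski passed in 9, Nfkbiz, Defb1 and Gata3 in 7, C4bp, Ncam1 and Ccl7 in 6, Clu, Mapkapk2, S100a9, Ppbp, Fcgr2b, Cfb and Il2ra in 5 and Bcap31 in 3, and Lef1 passed in 4 of the 9 that tested it. TMM scaling gave 10 and 10, no filter 11 and 7, a mean count of at least 30 gave 9 and 7, and leaving out the library high in epithelial genes, of another diet, 10 and 8. No library was high in lymph node genes by the rule used, so that alternative was not run. The rule was a mean log2 level over 3 median absolute deviations above the median of all libraries. Sucrose/oleate library 2 still had the highest summed level of its diet, 7109 against a median of 1197. The cause of these changes was not tested.

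In the other alternatives, 306 of 398 gene results kept sign and side of the threshold, 69 no longer passed, 3 newly passed and 20 changed sign, none of them among the 17 called genes. With total count scaling Pparg was 0.022 and Il6 0.0041, with DESeq2 Cxcl13 was 1.21, and with the replicate block C3 was -0.0075. With the control ratio Pparg was 0.00080, Trem2 0.0071, Cd9 0.11, Lair1 0.16, Tnf 0.070, Il6 0.041 and Cd3e 0.31. Without the 3 libraries Pparg was 0.12, Trem2 0.14, Cd163 0.051, Tnf 0.11, Il1b 0.61, Il6 0.30, Cxcl13 1.60, Cd3e 0.029 and Plau 0.020. With single libraries left out, signs changed within -0.10 to 0.072 for Pparg, -0.16 to 0.11 for Trem2, -0.12 to 0.0015 for Cd9, -0.21 to 0.058 for Tnf, -0.23 to 0.13 for Il6, -0.037 to 0.21 for C3, -0.032 to 0.28 for Emr1, -0.0048 to 0.22 for Ccl24, -0.26 to 0.016 for Tfrc, -0.76 to 0.49 for Il1b, -1.97 to 1.43 for Cxcl13 and -0.17 to 0.080 for Cd3e. Of 96 list medians compared, 95 moved little, and the neutrophil median became 0.16 without the 3 libraries.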

Other observations

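Leaving out Western diet libraries 2 and 6 and sucrose/oleate library 2 gave 22 of 491 genes higher on the Western diet. Of these, 18 had not passed with all libraries. Those named here were picked after their values were seen, and 0 genes were lower. On the list of kinases and transcription factors of cytokine receptors, of 17 genes, Socs3, Stat3 and Jak3 passed. Its other members did not, with differences from -0.54 for Cish to 0.41 for Stat2. Socs3, a feedback inhibitor of cytokine receptors, had 0.73 (edgeR adjusted p = 0.0073), against 0.22 with all libraries. Stat3, the transcription factor that induces it, had 0.27 (adjusted p = 0.0114), and Jak3, a kinase of receptors with the common gamma chain, 0.39 (adjusted p = 0.0063).

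Nfkbia and Bcl3, inhibitor family proteins of nuclear factor kappa B, had 0.41 (edgeR adjusted p = 0.0252) and 0.73 (adjusted p = 0.0384), and Irak3, a brake on Toll-like receptor signalling, 0.37 (adjusted p = 0.0021). Csf1, the macrophage growth factor, had 0.37 (adjusted p = 0.0156), and Cd86, a costimulatory ligand of myeloid cells, 0.56 (adjusted p = 0.0186). Of stromal genes, Pdgfrb had 0.49 and Cxcl12 0.45 (adjusted p = 0.0133 each). Others were Cd99, Hlx, Irf4, Nfatc2, Serping1, Tnfrsf14 and Trp53. The median over all genes was 0.10 in this comparison, against 0.02 with all libraries, and the control ratio separated the diets here as well.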
